A study of Macaca mulatta with 4 samples.

Results

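The outer 5 Mb of each of the 20 autosomes of the rhesus macaque (Macaca mulatta) were examined for H3K27me3, the trimethylation of lysine 27 on histone H3. Autosomes were cut into 10-kb bins from position 0 on rheMac8, and a bin was outer when it started within the first 5 Mb or within the last 5 Mb of the chromosome span, taken as the highest interval end over the 4 libraries. This gave 10000 bins on the start side and 10000 on the end side, or 20000 of 283406 bins in all, against 247367 inner bins of the same autosomes. The 40 outer stretches are called ends, and start and end name the side in assembly order, since arms are not marked in the files.

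The libraries came from morulae, embryos of compact cleavage cells before a blastocyst forms. There were 2 libraries labelled AG (androgenetic, with a nuclear genome of paternal origin) and 2 labelled GG (gynogenetic, with a nuclear genome of maternal origin), both without treatment or genetic change named in the labels. H3K27me3 was profiled by CUT&RUN, in which an antibody tethers protein A-MNase to the mark and the released DNA is sequenced. The sample titles, however, read ChIP_seq. The labels do not say how many embryos entered a library or whether replicates came from separate pools, so p-values measure the spread between these libraries, which may be technical.

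Each library is a list of intervals under tags on enriched islands, with no tag count, so its sequencing depth is unknown. The AG lists held 42512 (replicate 1) and 44337 (replicate 2) intervals. The GG lists were longer, at 362999 (replicate 1) and 287230 (replicate 2). Islands were called with a window of 200 bp and a gap of 200 bp in AG but 300 bp and 1200 bp in GG, so calling settings and groups cannot be told apart. Since depth is unknown, the outer bins were set against the inner bins of the same autosome within a library, which needs no scaling between libraries. This ratio does not remove the effect of the calling settings. Differences between AG and GG in it cannot be told apart from those settings.

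H3K27me3 is laid down by Polycomb repressive complex 2 and is found over silent developmental genes and, in oocytes and early embryos, also over broad regions outside promoters. In mice, H3K27me3 inherited from the oocyte silences some maternal alleles and acts as a form of imprinting that does not need DNA methylation. Chromosome ends are background of interest because subtelomeric DNA is often rich in genes, GC and segmental duplications and is harder to assemble and to map. Neither the sequence nor the genes of these stretches were analysed here, since no rheMac8 sequence or annotation was used.

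H3K27me3 intervals were concentrated in the outer bins in all 4 libraries, and more so in AG than in GG. The outer bins made up 7.48% of the autosomal span. For AG they held 26.8% (replicate 1) and 26.1% (replicate 2) of the autosomal covered bases. The GG shares were lower, at 18.8% (replicate 1) and 21.8% (replicate 2). Outer coverage was 1.78% and 2.22% in the AG replicates, against 0.393% and 0.508% in the inner bins. In GG the outer coverage averaged 20.3% ± 1.02 and the inner coverage 6.48% ± 0.519 (SD, n = 2 each).

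The outer-over-inner ratio divides the covered bases of the outer bins by those expected if every end had the covered percentage of the inner bins of its own autosome. The AG values were 4.37 (replicate 1) and 4.13 (replicate 2), with a mean of 4.25 ± 0.171 (SD, n = 2). The GG values were 2.75 (replicate 1) and 3.23 (replicate 2), with a mean of 2.99 ± 0.336 (SD, n = 2). Both AG values lay above both GG values, by 1.43 times on average. With 2 libraries against 2 the exact two-sided permutation test gave p = 0.33, the smallest it can give, so this difference exceeds the replicate spread but cannot pass a threshold. Leaving out any 1 autosome kept the ratio between 3.95 and 4.68 in the AG libraries and between 2.62 and 3.52 in the GG libraries.

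Both sides of the chromosomes took part. They are not anchored alike, since the start is position 0 and the end is the highest interval end over the 4 libraries. The effect of this on comparisons between sides was not tested. In AG the ratio was 4.30 ± 0.0469 on the start side and 4.21 ± 0.295 on the end side, and in GG 2.83 ± 0.341 and 3.16 ± 0.332 (SD, n = 2 each). Within each GG library the end side was the higher one, at 2.923 against 2.585 in replicate 1 and 3.39 against 3.07 in replicate 2, and the start exceeded the end on 6 of 20 autosomes in each. The AG sides had no common order, with 4.42 against 4.33 in replicate 1 and 4.0 against 4.26 in replicate 2. In absolute terms AG covered less than GG in both kinds of bins. GG covered 10.2 times the AG percentage of the outer bins (8.85 to 11.8 times over pairs of libraries) and 14.4 times that of the inner bins (12.0 to 17.4 times).

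The groups also differed in how coverage varied with the distance from the end. In AG it was highest in the outermost Mb, at 6.67 (replicate 1) and 6.20 (replicate 2) times the inner level. Farther in it stood at 5.72 and 5.52 times from 1 to 2 Mb, 4.18 and 3.78 times from 2 to 3 Mb, 3.15 and 2.96 times from 3 to 4 Mb, and 2.15 and 2.19 times from 4 to 5 Mb. With both sides together each step was lower than the one outside it in both AG libraries. On the end side alone the step from 3 to 4 Mb, at 3.79 and 3.3 times, was above that from 2 to 3 Mb, at 3.69 and 3.15 times. The GG outermost Mb stood at 2.37 (replicate 1) and 2.77 (replicate 2) times the inner level. The following steps stood at 2.92 and 3.45 times, 3.21 and 3.81 times, 3.01 and 3.50 times, and 2.26 and 2.61 times. With both sides together the GG maximum lay from 2 to 3 Mb inside the end in both libraries. On the start side alone it lay from 1 to 2 Mb, at 3.34 and 3.95 times, and on the end side from 2 to 3 Mb, at 3.73 and 4.41 times. The outermost 100 kb stood at 3.1 and 3.98 times in GG and at 8.63 and 7.07 times in AG. Within the outermost Mb the course was uneven. AG was lowest from 700 to 800 kb, at 3.21 and 4.47 times, and stood at 8.87 and 7.59 times from 900 to 1000 kb. GG was lowest from 800 to 900 kb, at 1.94 and 2.19 times.

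**Figure D1:**
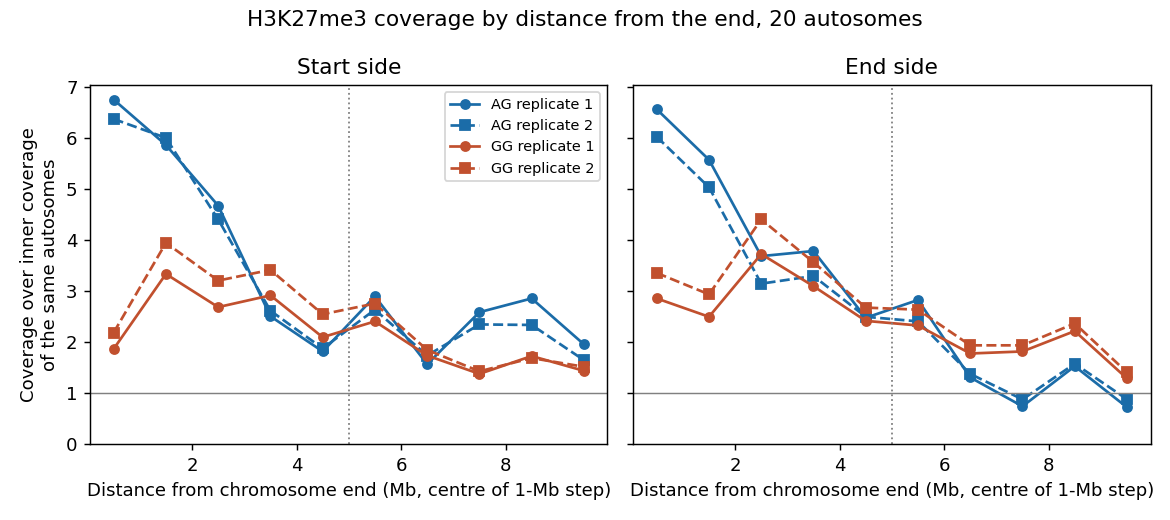
H3K27me3 coverage over the inner coverage of the same autosomes (y axis, no unit) in 1-Mb steps from the start (left) and from the end (right) of 20 autosomes, with 1 line per library; the grey line marks the inner level and the dotted line the 5-Mb limit. Both AG libraries are highest in the outermost Mb on either side (6.76 and 6.38 at the start, 6.57 and 6.03 at the end), where both GG libraries lie between 1.87 and 3.36.

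In the outermost Mb the AG mean was 6.44 ± 0.327 and the GG mean 2.57 ± 0.289 (SD, n = 2 each), whereas from 4 to 5 Mb the means were 2.17 ± 0.0299 and 2.44 ± 0.252. The low outermost Mb of GG was more marked on the start side, at 1.87 and 2.19 times the inner level, than on the end side, at 2.86 and 3.36 times. This comparison carries the limit that the sides are not anchored alike. The 5-Mb limit did not coincide with a step in the data. Just inside it, from 4 to 5 Mb, the AG libraries covered 0.874% and 1.18% and the GG libraries 16.1% and 17.0%. Just outside it, from 5 to 6 Mb, they covered 1.17% and 1.35%, and 16.9% and 17.6%. From 9 to 10 Mb the ratio was 1.34 and 1.27 in AG and 1.36 and 1.46 in GG with both sides together, but the sides went opposite ways. There AG stood at 1.96 and 1.65 on the start side against 1.44 and 1.52 in GG, and at 0.725 and 0.882 on the end side against 1.29 and 1.41.

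Single ends followed this order in part. The highest of the 5 steps was the outermost Mb at 15 and 16 of 40 ends in the AG libraries, but at only 8 and 9 in those of GG. Coverage of the outermost Mb exceeded that from 4 to 5 Mb at 32 and 29 ends in AG and at 23 and 27 ends in GG. The start of chromosome 9 showed the opposite courses within one stretch. There AG covered 8.15% and 6.34% of the outermost Mb and 0% and 0.185% from 4 to 5 Mb. GG covered 5.97% and 8.25% of that outermost Mb, but 78.4% and 87.9% from 1 to 2 Mb and still 35.6% and 51.9% from 4 to 5 Mb. This end was picked as an example after its values were seen.

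Most ends were above their autosome's inner level in both groups, over a wide range. Over the 40 ends its median was 4.44 and 4.36 for the AG pair and 3.16 and 3.82 for the GG pair, with values from 0.248 to 18.8 in AG and from 0.233 to 18.5 in GG. Both AG libraries were above 1 at 35 ends, and both GG libraries at 33. Among 484 inner windows of 5 Mb, 30.6% were above 1 in both AG libraries and 35.7% in both GG libraries. Of the 20 most covered of all 524 outer and inner windows, 12 and 13 were ends in the AG replicates and 11 in each GG replicate.

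A limma fit over the 40 ends, on the log2 ratio with 0.1 of the library's autosomal percentage added above and below, asked which ends stood apart from the inner level beyond the replicate spread. With Benjamini-Hochberg adjustment at 0.05, 35 ends were above it in AG and 31 in GG, and 30 in both groups. In a second limma fit that held the 40 ends and the 484 inner windows together, 20.7% of the inner windows were called above it in AG and 26.9% in GG. That fit called 35 ends above it in AG and 31 in GG, and 1 and 5 below. Below it the fit of the ends alone had 2 in AG and 5 in GG, and the joint fit had 53.1% and 55.0% of the inner windows. Since most inner windows were also called above or below the inner level, these shares, and not the p-values, are what the counts were read against.

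**Figure D2:**
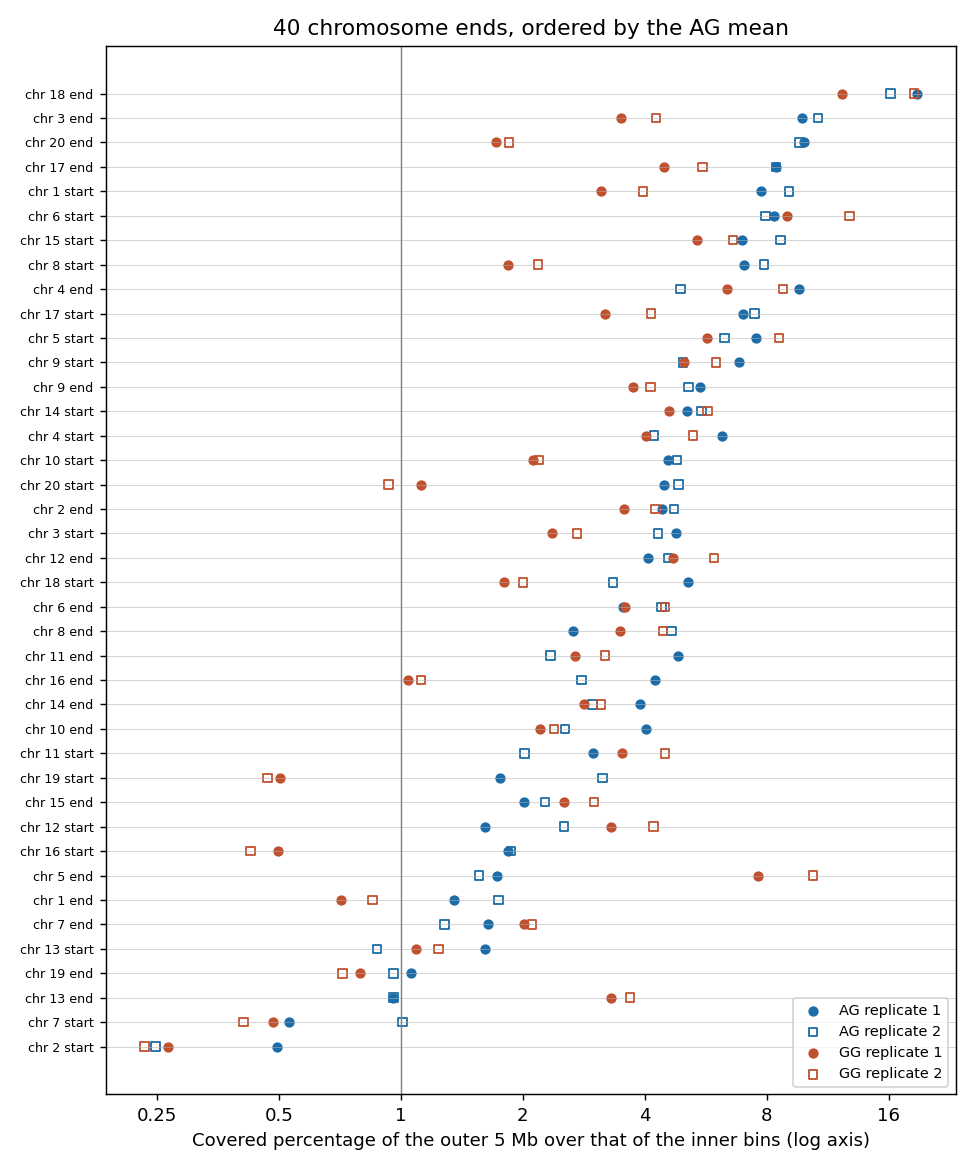
Ratio of the covered percentage in the outer 5 Mb to that in the inner bins of the same autosome (x axis, log scale, no unit) for 40 chromosome ends (y axis, ordered by the AG mean), with 1 point per library and a grey line at 1. The end of chromosome 18 is the highest in AG (18.8 and 16.2), and the start of chromosome 2 lies below 1 in all 4 libraries (0.494, 0.248, 0.266 and 0.233).

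The end of chromosome 18 (65120001 to 70118848) had the highest ratio in both groups. AG covered 4.85% and 5.59% of it in replicates 1 and 2, against 0.258% and 0.345% of the inner bins, a ratio of 18.8 and 16.2. GG covered 31.9% and 34.8% of it, against 2.60% and 1.88%, a ratio of 12.3 and 18.5. The 2 groups overlapped here, and the limma log2 difference of AG minus GG was 0.37 (SE 0.261, adjusted p = 0.248, or 0.253 with the inner windows in the fit). Within the stretch the GG libraries had 2 maxima, at 58.6% and 66.0% from 1 to 2 Mb and at 59.6% and 65.5% from 4 to 5 Mb, whereas AG had 7.05% and 9.39% in the outermost Mb and 9.35% and 9.86% from 1 to 2 Mb.

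The other ends with the highest AG log2 ratios were, in this order, the ends of chromosomes 3 and 20, the start of chromosome 1 and the end of chromosome 17. The end of chromosome 3 (180820001 to 185817775) had ratios of 9.76 and 10.7 in AG, against 3.49 and 4.26 in GG. Chromosome 1 at its start (1 to 5000000) had 7.76 and 9.08 in AG and 3.12 and 3.96 in GG. The end of chromosome 17 had 8.46 and 8.44 in AG and 4.46 and 5.56 in GG. At each of these ends the AG libraries lay above the GG libraries without overlap.

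In GG the ends that followed chromosome 18 were others. Chromosome 6 at its start (1 to 5000000) was covered to 45.3% and 53.0% in GG, a ratio of 8.97 and 12.8, and to 2.29% and 2.95% in AG, a ratio of 8.32 and 7.95. From 2 to 3 Mb inside that end GG coverage reached 77.8% and 87.7%. The end of chromosome 5 had GG ratios of 7.62 and 10.4, the end of chromosome 4 of 6.39 and 8.77, and the start of chromosome 5 of 5.70 and 8.59. The start of chromosome 9 was the most covered end in GG, at 50.6% and 61.4%, but its inner bins were also well covered (10.1% and 10.2%), so its ratio was 4.99 and 6.0.

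A few ends were poorer than the inside of their chromosome. At the start of chromosome 2 (1 to 5000000) AG covered 0.124% and 0.0827% and GG 1.20% and 0.873%. It held 1 bin marked in both AG libraries and 7 marked in both GG libraries. On chromosome 7 the start had ratios of 0.528 and 1.01 in AG and 0.482 and 0.409 in GG. Its AG log2 ratio was −0.40 with both AG libraries and 0.01 without AG replicate 1, and the limma call was also lost without either GG library (adjusted p = 0.251). The starts of chromosomes 16 and 19 were low in GG, with ratios of 0.497 and 0.425, and of 0.503 and 0.469.

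Some ends were enriched in 1 group beyond the other. The limma difference of the log2 ratios, AG minus GG, passed the threshold at 15 ends with the higher ratio in AG and at 4 ends with the higher ratio in GG, and in the joint fit at 14 and 3 ends, where 24.2% and 22.9% of the inner windows were called in these directions. Without overlap of libraries, 20 ends had the higher ratios in AG and 8 in GG, against 36.8% and 38.2% of the inner windows. The median log2 difference was 0.35 over the ends and −0.02 over the inner windows. Inner windows differed in both directions about equally often, whereas the ends leaned toward AG. The windows are measured against the inner bins they belong to, so their differences centre near 0 by construction. The lean of the ends thus restates the higher outer-over-inner ratio of AG.

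These counts fell when either GG library was left out, and the cause was not tested. For all outer bins together the log2 difference in the ratio was 0.51 with all libraries. It was 0.40 without GG replicate 1 and 0.63 without GG replicate 2. Without GG replicate 1 the ends with the higher AG ratio numbered 4 and those with the higher GG ratio 2, and without GG replicate 2 they numbered 7 and 2. In the full fit limma shared a single spread over all 40 ends, so that every difference had an SE of 0.261 and the adjusted p-values are smaller than 2 libraries per group can bear. For the largest difference in each direction the adjusted p of the joint fit is therefore printed beside it.

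**Figure D3:**
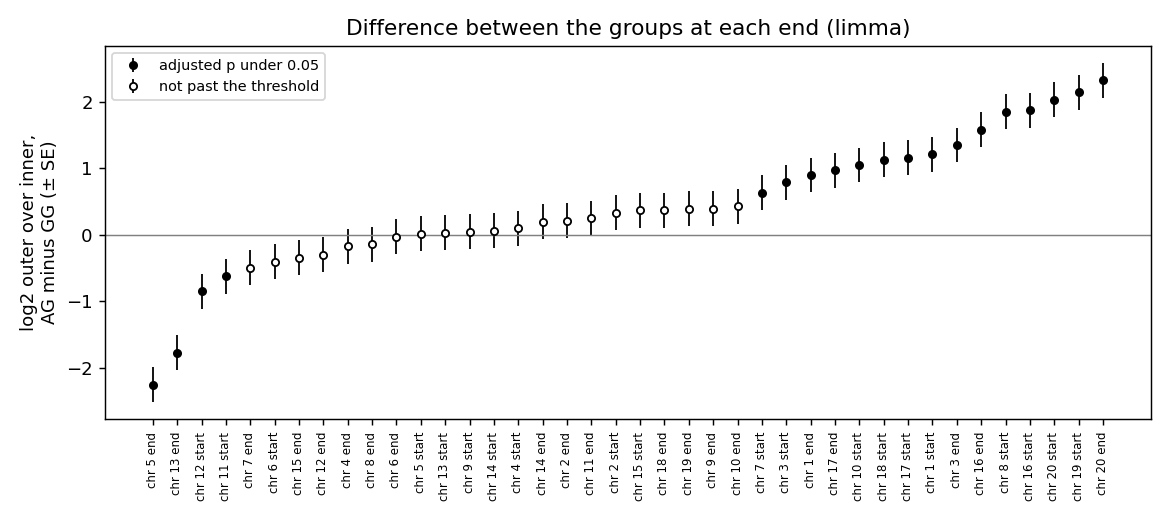
Difference between the groups in the log2 outer-over-inner ratio, AG minus GG (y axis, log2, bars ± SE from limma, 2 libraries per group), for 40 chromosome ends in order of the difference; filled points passed a Benjamini-Hochberg adjusted p of 0.05. Values run from −2.25 at the end of chromosome 5 to 2.32 at the end of chromosome 20, with 15 filled points above 0 and 4 below.

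The end of chromosome 20 (69800001 to 74790397) had the largest excess in AG. AG covered 2.65% and 4.84% of it against 0.267% and 0.502% of the inner bins, a ratio of 9.91 and 9.64. GG covered 14.8% and 14.1% against 8.64% and 7.62%, a ratio of 1.72 and 1.85. The log2 difference was 2.32 (limma, SE 0.261, adjusted p = 5.77e-12, or 0.000597 with the inner windows in the fit). Its start showed the same order, with ratios of 4.47 and 4.85 in AG and 1.12 and 0.933 in GG and a log2 difference of 2.03.

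GG covered the inner bins of chromosomes 16 and 19 to 12.7% and 12.2% and to 11.9% and 13.0%. Those of chromosomes 9 and 10 were covered in GG to 10.1% and 10.2% and to 11.6% and 12.2%. On chromosome 9 the log2 differences were 0.05 at the start and 0.39 at the end, and neither passed. On chromosome 10 they were 1.05 at the start, which passed, and 0.43 at the end, which did not. Whether inner coverage and these differences are related was not tested. At the start of chromosome 16 the ratio was 1.84 and 1.87 in AG and under 1 in GG (log2 difference 1.87). Its end had ratios of 4.23 and 2.79 in AG and 1.04 and 1.12 in GG (log2 difference 1.58). On chromosome 19 the start had ratios of 1.76 and 3.15 in AG (log2 difference 2.14). The calls at the end of chromosome 16 and the start of chromosome 19 were lost without either GG library (limma adjusted p from 0.0632 to 0.0747), with differences from 1.54 to 2.19. At an outer width of 2 Mb the difference at the end of chromosome 16 was 0.79 (limma adjusted p = 0.0642). That at the start of chromosome 1 was 0.83 (limma adjusted p = 0.0877), so neither passed at this width. Without GG replicate 1 the calls at the end of chromosome 3 and the start of chromosome 1 were lost as well (limma adjusted p = 0.0659 and 0.0747).

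On the start side of chromosome 8 (1 to 5000000) AG reached the GG level over 2 Mb. AG covered 10.6% and 12.1% of the outermost Mb there and GG 12.2% and 12.9%. From 1 to 2 Mb AG covered 8.79% and 9.21%, above the 7.67% and 7.13% of GG. From 2 to 3 Mb the order turned, with 0.101% and 0.285% in AG and 44.2% and 45.2% in GG. Over the whole stretch the ratio was 7.04 and 7.89 in AG and 1.84 and 2.18 in GG, a log2 difference of 1.85.

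In the other direction, the end of chromosome 5 (185430001 to 190424711) was covered to 26.5% and 26.4% in GG but to 0.440% and 0.441% in AG. Its ratio was 1.73 and 1.56 in AG, and the log2 difference was −2.25 (limma, SE 0.261, adjusted p = 1e-11, or 0.00066 with the inner windows in the fit). At the end of chromosome 13 (103930001 to 108924993) the AG ratio was 0.958 in both libraries and the GG ratio 3.31 and 3.68, a log2 difference of −1.77. Both differences kept their calls without any 1 library.

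The level of an end was well reproduced within a group. Across the 40 ends the log2 ratios of the AG pair correlated at Pearson's r = 0.920 (Spearman's rho 0.919) and those of the GG pair at r = 0.997 (rho 0.991). Pairs of unlike group gave r from 0.635 to 0.678 and rho from 0.534 to 0.543. The 2 ends of an autosome share its inner bins, so these are descriptions across ends that are not independent.

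Marked bins gave the same picture of density and a different one of overlap. A bin was marked in a group when at least 450 of its bases were covered in both libraries. Of the 20000 outer bins 1083 (5.42%) were marked in AG and 5354 (26.8%) in GG, against 1.16% and 8.91% of the inner bins, so the density of marked bins was 4.67 times the inner one in AG and 3.0 times in GG. An end held from 1 to 64 bins marked in AG, with a median of 24, and from 7 to 334 marked in GG, with a median of 123. By distance, the marked share fell step by step in AG, from 8.80% of bins in the outermost Mb to 7.15%, 4.75%, 3.88% and 2.50%. In GG it was 24.5%, 28.4%, 31.0%, 28.4% and 21.6%.

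Outer AG bins coincided with GG bins less often than inner AG bins did, although the share of bins that GG marked was larger outside. Of the outer bins marked in AG, 554 (51.2%) were also marked in GG, against 63.4% of the inner ones. Another 467 (43.1%) were without any base covered in GG, against 26.0% of the inner ones. These shares are descriptions without a test.

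**Figure D4:**
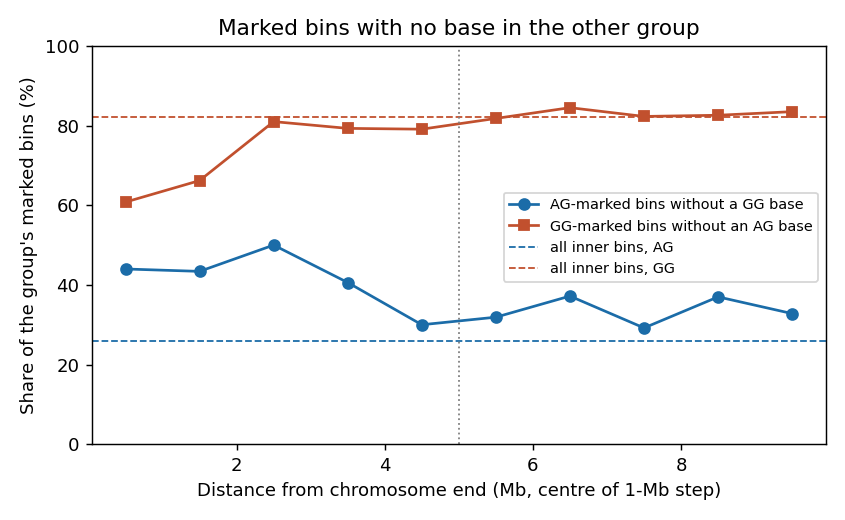
Share of the bins marked in 1 group that held no covered base in the other (y axis, percent), by distance from the nearer chromosome end in 1-Mb steps (x axis, both sides of 20 autosomes together); dashed lines give the same share over all inner bins and the dotted line marks 5 Mb. For AG the share is 44.0% in the outermost Mb, 50.0% from 2 to 3 Mb and 30.0% from 4 to 5 Mb, above the inner 26.0%. In the steps from 5 to 10 Mb it is 31.9%, 37.2%, 29.2%, 37.0% and 32.8%, also above the inner 26.0%. For GG it is 60.8% in the outermost Mb, below the inner 82.2%.

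Taken by library, 50.8% and 46.8% of the outer marked bins of AG replicates 1 and 2 were marked in both GG libraries, against 58.3% and 53.1% of their inner marked bins. The order was the same in both AG libraries. Seen from GG, 73.5% of the outer marked bins had no AG base, against 82.2% of the inner ones, and this share was 60.8% in the outermost Mb and 66.2% from 1 to 2 Mb. The outer AG bins without a GG base lay a median of 50.6 kb from the nearest GG interval, and the inner ones 49.4 kb. At least 500 kb away were 3 of the outer and 43 (5.76%) of the inner ones.

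The AG bins without a GG base were unevenly spread over the ends. Chromosome 8 at its start held 43 of them among its 57 AG bins, the end of chromosome 17 held 32 of 42 and the end of chromosome 3 held 31 of 64. At the end of chromosome 5 none of the 6 AG bins lacked a GG base, and at the end of chromosome 4 it was 4 of 32. At the start of chromosome 7 the 5 AG bins all lacked one. GG itself marked 92 bins at the start of chromosome 8, 70 at the end of chromosome 17 and 29 at the start of chromosome 7. It marked 181 at the end of chromosome 3, 180 at the end of chromosome 5 and 252 at the end of chromosome 4. The median over the ends was 123. Whether AG bins lacked a GG base more often than other bins of the same end was not tested.

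Marked bins were denser in the outer stretches in both groups, but they were fuller there than inside only in GG. The median covered length of a marked bin in AG replicates 1 and 2 was 1905 and 1476 bases in the outer bins and 1925 and 1494 in the inner bins. In GG replicates 1 and 2 it was 7365 and 8358 bases in the outer bins and 5696 and 6983 in the inner bins. The replicates of AG overlapped to a like extent outside and inside, with a Jaccard index (shared bins over bins marked in either) of 0.387 and 0.406, where the unequal set sizes allow at most 0.671 and 0.652. For GG it was 0.854 and 0.686, of at most 0.976 and 0.790.

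Intervals separated by no more than 1500 bp were joined into domains, of which those with at least 450 covered bases were kept. Outer domains were narrower than inner ones in AG and wider in GG. Outer AG domains were denser than inner ones, at 6.81 and 11.5 per Mb in replicates 1 and 2 against 1.31 and 2.21. Their N50 (50% of the summed domain width lies in domains of that width or more) was 3815 and 2832 bp in the outer bins and 4409 and 3512 bp in the inner bins. In GG the outer N50 was 34342 and 50399 bp in replicates 1 and 2, against 20387 and 26383 bp inside. Of the autosomal GG domains of at least 100 kb, 35 of 122 (28.7%) lay in the outer bins in replicate 1 and 67 of 221 (30.3%) in replicate 2. AG had 0 of this width in either library. The widest outer domain of a single GG library was 194246 bp in replicate 1 and 376398 bp in replicate 2.

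The widest outer domains shared by both libraries of a group differed in what the other group held there. The 3 widest of GG were chr11:4006042-4200287 (194.2 kb), chr14:127658651-127840783 (182.1 kb) and chr18:68721595-68898073 (176.5 kb), each with at least 89.9% of its bases covered in either GG library. AG covered 1.89% and 0.590% of the domain on chromosome 11, 11.2% and 4.84% of that on chromosome 14, which lies 0.0503 Mb from the end of the span, and 17.2% and 22.3% of that on chromosome 18.

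All of the 3 widest AG domains in outer bins lay on chromosome 17. The widest, chr17:2334734-2388030 on the start side (53.3 kb), had 92.3% and 92.1% of its bases covered in AG and 59.2% and 77.2% in GG. For its neighbour chr17:2392592-2412855 (20.26 kb) the AG values were 90.5% and 94.4% and the GG values 21.2% and 61.2%. The domain on the end side, chr17:93623278-93646929 (23.65 kb), had 81.0% and 88.0% in AG, and neither GG library had a base there (0%).

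Single bins were tested with limma over all 30536 bins with enough coverage, of which 5841 were outer bins, on covered bases scaled to library totals. With Benjamini-Hochberg adjustment at 0.05, 860 of them (14.7%) were higher in AG and 3851 (65.9%) higher in GG, where 10.7% and 75.6% of all tested bins were. By side, 15.3% (start) and 14.2% (end) were higher in AG and 64.5% and 67.2% higher in GG. Of the outer calls, 435 of those higher in AG had no GG base and 3831 of those higher in GG had no AG base. These bins could enter the test by 1 group's coverage only, so their calls repeat that the other group was bare.

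The 5 outer bins with the highest differences lay on chromosomes 17 and 8. The highest 3 differences were the adjoining bins of chromosome 17 from 93620001 to 93650000, which span the AG domain without GG coverage described above. The top bin, from 93630001 to 93640000, had 7856 and 8167 bases covered by AG and 0 by either GG library. Its limma log2 difference was 7.67. This bin could enter the test by AG coverage only, so its call repeats that GG was bare there. Next were the bins of chromosome 8 from 170001 to 180000 and from 130001 to 140000, with 5632 to 6294 covered bases in AG and 0 in GG. The lowest difference, −4.24, was shared by 32 outer bins. The 5 named have 9999 or 10000 covered bases in the GG libraries and 0 in AG; they are the first by position, chr1:220580001-220590000, chr3:181710001-181720000, chr3:182470001-182480000, chr4:70001-80000 and chr4:260001-270000. Where a group is at 0, the difference is no fold. Its size depends on the 300 bases added to every value and on the scaling to totals. Without scaling the top bin of chromosome 17 stood at 4.79 and the bin chr1:220580001-220590000 at −5.1, so the order of their sizes turned.

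Where both groups had marked a bin, the direction depended on the scaling. Scaled to totals, limma called 386 of the 554 outer bins marked by every library for AG and 0 for GG. Unscaled, it called 5 for AG and 396 for GG, and under median-of-ratios factors 86 and 110. Without scaling, 7.64% of the tested outer bins were higher in AG, against 3.14% of the inner autosomal bins. Unscaled, 446 outer bins were higher in AG, and 5 bins marked in every library were. Bins without a GG base, 435 of the outer AG calls scaled to totals, could enter the test by AG coverage only. Their calls repeat that GG was bare there, so the shares without scaling are no separate support for a difference between outer and inner bins. Among bins covered in all 4 libraries the order turned, with 76.8% of the outer bins higher in AG against 85.6% of the inner ones. Without GG replicate 1 or 2 the outer share did not exceed the inner one, with 3.0% and 2.59% of the outer bins against 3.12% and 3.09% of the inner ones.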

How the data were processed

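H3K27me3 CUT&RUN intervals of 4 libraries, 2 AG and 2 GG, were analysed; groups and replicate numbers follow the sample titles. SICER 1.1, deepTools 3.3.1, Bowtie2, SAMtools and Trim Galore, and the build rheMac8, are named in the submitters' processing notes. The deposited file names give the SICER windows and gaps and an E value of 0.001. The files as deposited hold chromosome, start and end, sorted and without overlap, and no signal, count or score. How tags were joined is not given in the sources used here, and depth is unknown.

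Covered bases were summed per 10-kb bin. The outer-over-inner ratio, the 1-Mb steps, marked bins and domains are described beside their values. Ends and bins were fitted with limma 3.58.1 (lmFit and eBayes, with trend for bins) without a block for replicate number. Bins entered with at least 750 covered bases in 2 libraries, and a prior of 300 bases was added after scaling to library totals. Named ends were the 5 highest and 3 lowest log2 ratios of each group and the called differences, at most 10. Named bins were the 5 highest and 5 lowest differences past the threshold. Named domains were the 3 widest outer ones of each group that were covered in both its libraries. The members, lists and tests were chosen with earlier results of these data known.

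On simulated ends (AG against GG, 40 ends, 10 changed), limma called 50.0% of log2 changes of 1 and 100% of changes of 2. On simulated bins (AG against GG, 30536 bins) it called 89.1% of log2 changes of 2 when 12000 bins were changed and 0% when 200 were. Same-numbered libraries did not deviate together (residual correlation −0.0646). Promoters, genes and sequences were not analysed, since no rheMac8 annotation or sequence was used. Python 3.11.15, numpy 2.4.6, pandas 2.3.3, matplotlib 3.10.9 and R 4.3.3 were used.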

Additional observations from a re-analysis of the deposited data

Results flagged for a closer look

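At 19 ends the excess of the outer over the inner bins differed between AG and GG by the limma test of the difference itself (log2 AG minus GG, Benjamini-Hochberg adjusted p under 0.05). Higher in AG were the ends of chromosomes 20 (2.32), 16 (1.58), 3 (1.35), 17 (0.97) and 1 (0.90), and the starts of chromosomes 19 (2.14), 20 (2.03), 16 (1.87), 8 (1.85), 1 (1.21), 17 (1.16), 18 (1.13), 10 (1.05), 3 (0.79) and 7 (0.63). Higher in GG were the ends of chromosomes 5 (−2.25) and 13 (−1.77) and the starts of chromosomes 12 (−0.85) and 11 (−0.62). With the inner windows in the fit, 14 ends with the higher AG ratio and 3 with the higher GG ratio were called. The starts of chromosomes 7 and 11 were not. In that fit 24.2% and 22.9% of the 484 inner windows were called in these directions. A call alone therefore does not set an end apart from an inner window. Calling settings differ with the groups and cannot be told apart from them.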

How the results depend on the processing

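Depth is unknown and each group has 2 libraries, which limits every comparison. The log2 difference in outer-over-inner ratio, AG minus GG, was positive in every alternative run, from 0.34 (an outer width of 10 Mb, and the median of the 40 ends) to 1.05 (2 Mb), with 0.51 when libraries were thinned to 42512 intervals and 0.40 to 0.63 leaving out 1 library. In AG the ratio was 5.44 with 2 Mb, 3.3 with 10 Mb and 4.45 from pooled percentages; in GG it was 2.64, 2.62 and, as the median of the 40 ends, 3.49. An outermost step of 2 Mb gave 6.03 in AG and 2.88 in GG.

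The ends called below the inner level in AG numbered 1 with a prior of 0.5 of the autosomal percentage, with a replicate block and with the inner windows in the fit, which was added after seeing the data. The block left 12 ends with the higher AG ratio and 3 with the higher GG ratio, and 780 and 3840 outer bins higher in AG and GG. Leaving out 1 library gave 1 to 2 ends below the inner level in AG and 2 to 6 in GG, and 4 to 17 and 2 to 6 ends with the higher ratio in AG and GG. The start of chromosome 7 went from −0.40 to 0.01 in AG without AG replicate 1 and to −0.80 without AG replicate 2. These fits lend a lone library the spread of the other group; the cause of the losses was not tested.

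Outer bins marked in AG numbered 605 at 1500 covered bases and 2801 when marked in either library, and 1083 to 2324 leaving out 1 library (highest without AG replicate 1, which leaves a single AG library to meet the rule). In GG they numbered 3099 with 20-kb bins and 1100 after thinning, which removes mainly GG intervals. Shared bins numbered 317 at 1500 bases, 1461 in either library, 83 after thinning and 577 to 1087 leaving out 1 library (highest again without AG replicate 1). The outer-over-inner density was 4.18 (1500 bases), 4.84 (20 kb) and 4.90 (either) in AG and 2.41 (either) and 2.58 (thinned) in GG, and 4.67 to 4.92 and 2.40 to 3.0 leaving out 1 library. In the main setting and the 9 alternatives run for overlap, the share of AG bins also marked in GG was lower outside than inside.

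Outer bins higher in AG numbered 446 without scaling, 532 with median-of-ratios factors, 461 among bins covered in all 4 libraries, where 1 was higher in GG, and 151 to 1233 leaving out 1 library. The outer N50 in GG was 22844 bp with joining at 500 bp and 70190 bp at 3000 bp, or 1.42 and 2.08 times the inner one; in AG it was 0.892 times at 3000 bp.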
